A study of Homo sapiens with 6 samples.

Results

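The integrin and laminin genes of NCI-H292 cells were compared after a knockdown of the long noncoding RNA SH3PXD2A-AS1. NCI-H292 is an established epithelial line grown from a human lung mucoepidermoid carcinoma. The genes were chosen by name from the deposited table, as all integrin alpha subunits, integrin beta subunits and laminin chains, which gave 38 of 60027 rows. Values are given for 37 of them, 26 integrin genes (18 alpha, 8 beta) and 11 laminin genes. Polyadenylated RNA was sequenced from 3 knockdown and 3 negative control libraries, the controls being called vector control in the series text. The sources used here name neither the knockdown reagent nor the number of clones. Separate cultures are not mentioned in the labels, so the p-values reflect the spread between these libraries alone, which may be technical. Values are TPM, which are reads per gene length scaled to the same total in each library, so levels can be compared between genes. In such bulk RNA, fewer cells of a type and less RNA per cell cannot be told apart.

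Integrins are receptors made of 1 alpha and 1 beta subunit that hold cells to the extracellular matrix and signal from it. Laminins are matrix proteins made of 1 alpha, 1 beta and 1 gamma chain, and they build the basement membrane under epithelia. In stratified and airway epithelium, the laminin that holds the chains of LAMA3 and LAMB3 is bound by the integrin of ITGA6 and ITGB4 in hemidesmosomes and by the integrin of ITGA3 and ITGB1 in other contacts. The receptor of ITGA5 and ITGB1 binds fibronectin, that of ITGA2 and ITGB1 binds collagen, and those of ITGAV with ITGB6 or ITGB8 bind and activate latent TGF-beta.

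The targeted RNA did not separate the groups. SH3PXD2A-AS1 stood at 0.37, 0.68 and 0.44 TPM in knockdown replicates 1 to 3, against 0.96, 0.75 and 0.51 TPM in negative control replicates 1 to 3. The groups overlapped (p = 0.2, exact permutation test, two-sided), and 3 against 3 libraries allow no p under 0.1. Directions below are therefore those of the libraries labelled knockdown. Genes with a TPM above 0 numbered 23162 to 25910 per library, and depth is unknown because TPM keeps none. Knockdown replicate 3 lay farthest from the controls on the first principal component, at 38.19 against 14.78 and 17.83 for the other knockdown libraries, and calls that change without it are named with their genes. The 6 epithelial markers all passed the filter described next and 4 of them rose (2 after median ratio scaling), and their summed level was 3602 to 3690 TPM in knockdown and 3221 to 3320 TPM in negative control libraries. Leukocyte markers summed to 67.8 to 72.3 TPM in knockdown and 44.7 to 50.5 TPM in negative control libraries, nearly all from CD68 and LCP1, which also rose (log2 fold changes of 0.58 and 0.63, limma adjusted p = 0.00283 and 0.00509), while PTPRC was listed at 0 in all 6 libraries. Endothelial markers summed to at most 2.19 TPM, platelet markers to at most 3.67 TPM, and fibroblast markers to at most 27.0 TPM, most of it COL1A1. The part of these levels in the results was not tested.

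Of the 37 genes, 23 had a mean of at least 1 TPM over the 6 libraries and were tested, and 9 of these were called. LAMA3 and LAMB3 rose together, the laminin beta chain LAMB1 fell while LAMB2 rose, and ITGA2, ITGA5 and ITGB8 rose while ITGB4 and ITGAE fell. Calls are genes with a limma p under 0.05 on log2(TPM + 1) after Benjamini-Hochberg adjustment over 15755 genes. Of the 23 genes, 6 rose and 3 fell, or 39.1% called, against 14.8% of all genes tested, of which 11.3% rose and 3.47% fell. The groups did not overlap for 16 of the 23 (69.6%), against 36.5% of all genes tested. Of the 23 genes, 9 had a mean over 100 TPM, among them all 6 tested laminin genes. The shares were not compared with those of genes of like level. The median log2 fold change was 0.07 over the 23 genes and 0.08 over all genes. It was −0.0055 over the 17 tested integrin genes, of which 3 rose and 2 fell, and 0.26 over the 6 tested laminin genes, of which 3 rose and 1 fell. After median ratio scaling, which takes out a shift shared by most genes, 5 of the 23 genes rose and 5 fell (21.7% each), against 6.2% and 6.68% of all genes. The plot of TPM by library shows levels that range widely.

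**Figure D1:**
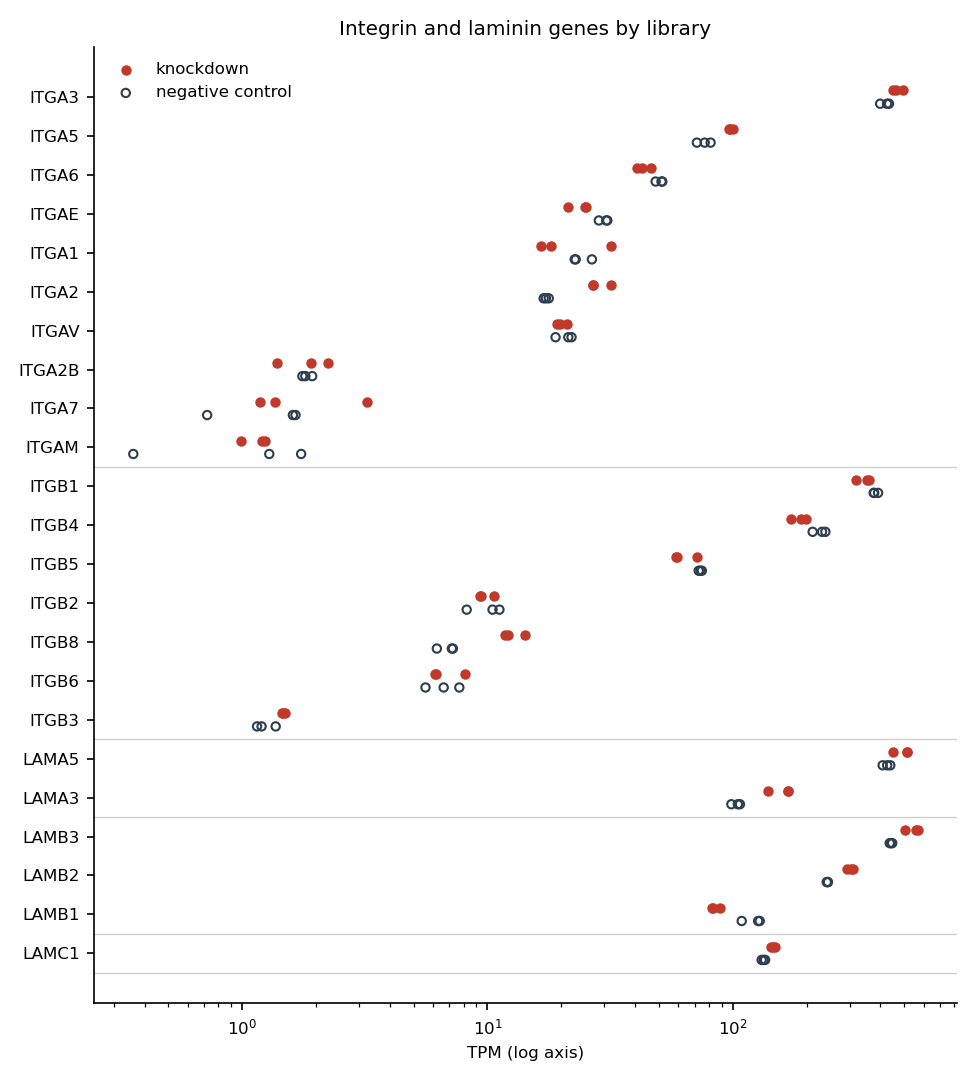
TPM on a log axis for the 23 tested integrin and laminin genes, with 1 point per library, filled for knockdown and open for negative control. LAMB3, LAMA5, ITGA3 and ITGB1 were the most abundant. The groups are apart for 16 of the 23 genes. Among these, LAMB2, LAMA3, ITGA2 and ITGB8 were higher in knockdown, and LAMB1 and ITGB4 were lower.

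The paired epithelial chains LAMA3 and LAMB3 both rose. LAMA3 (ENSG00000053747, chromosome 18 at 23689443 to 23956222, plus strand, GRCh38), the alpha chain that carries the integrin-binding end, stood at 139.83, 168.24 and 167.64 TPM in knockdown replicates, against 104.89, 107.00 and 98.71 TPM in negative control replicates. The lowest knockdown value lay above the highest control value, and LAMA3 rose 1.52-fold (limma log2 fold change 0.61, SE 0.08, adjusted p = 0.00483). LAMB3 (ENSG00000196878, chromosome 1 at 209614870 to 209652466, minus strand), the beta chain that joins it and the most abundant laminin gene here, stood at 567.91, 560.44 and 505.06 TPM in knockdown replicates and 446.72, 442.56 and 436.49 TPM in negative control replicates. It rose 1.23-fold (limma log2 fold change 0.30, SE 0.05, adjusted p = 0.0125), with no overlap. That call was lost without knockdown replicate 2 (adjusted p = 0.0523), negative control replicate 2 (0.051) or negative control replicate 3 (0.0562), and after median ratio scaling (log2 fold change 0.20, adjusted p = 0.0652).

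The fold change of LAMA3 was larger than that of LAMB3. LAMB3 was the more abundant in each library. The ratio of LAMB3 to LAMA3 was 4.06, 3.33 and 3.01 in knockdown and 4.26, 4.14 and 4.42 in negative control replicates. Its means were 3.47 ± 0.538 and 4.27 ± 0.143 (SD, n = 3 each). The groups did not overlap, but knockdown replicate 1 lay close to negative control replicate 2. Such ratios do not change when all genes of a library are divided by the same factor, as in median ratio scaling. Quantile normalization and removal of length or GC trends can change them. The ratios were not tested.

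Promoters of the laminin genes that were called are shown. They run from 250 bases before a RefSeq transcript start to 50 bases from it on, on GRCh38.p14, and 26 of the 37 genes had at least 1 entry, with 33 entries in all. The AP-1 motif TGANTCA, searched on both strands, was found in 7.71% of 35116 promoters and in 3 of the 33 entries (9.09%), those of LAMA3, ITGA5 and 1 of the 3 LAMB3 starts. LAMA3 held it at 125 and 69 bases before the start, and LAMB3 at 67 bases before. Its letters are in capitals in both.
LAMA3, chr18:23872770-23873069, plus strand: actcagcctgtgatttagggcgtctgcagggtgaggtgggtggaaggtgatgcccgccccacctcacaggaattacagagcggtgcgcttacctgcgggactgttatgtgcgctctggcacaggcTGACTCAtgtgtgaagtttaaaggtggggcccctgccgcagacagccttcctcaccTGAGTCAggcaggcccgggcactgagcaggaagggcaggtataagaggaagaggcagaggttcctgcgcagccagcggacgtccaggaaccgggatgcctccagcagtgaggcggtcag
LAMB3, chr1:209651325-209651624, minus strand: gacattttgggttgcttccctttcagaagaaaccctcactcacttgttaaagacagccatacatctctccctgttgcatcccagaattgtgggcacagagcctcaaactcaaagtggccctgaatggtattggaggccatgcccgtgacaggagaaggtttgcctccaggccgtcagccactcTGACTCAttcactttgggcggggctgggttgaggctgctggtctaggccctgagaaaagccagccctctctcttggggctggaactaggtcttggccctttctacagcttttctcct
This LAMA3 start lies 183577 bases inside the gene from its first annotated base and is that of a shorter transcript, and the LAMB3 start lies 1092 bases inside. Which starts these cells use was not measured in the gene table.

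For LAMB1 and LAMB2 the GC box GGGCGG, searched on both strands and found in 19 of the 33 entries (57.6%) and 45.0% of all promoters, is in capitals. Also searched on both strands were the interferon response element ISRE (1 of 33 entries, 3.57% of all promoters), the TATA box TATAAA (2 of 33, 11.5% of all) and the NF-kB motif (6 of 33 or 18.2%, 5.91% of all). The NF-kB entries were those of ITGA1, ITGA5, ITGA10, ITGA11 and the other 2 LAMB3 starts. The windows of these 2 LAMB3 starts overlap each other and hold the same 3 matches, 2 of which start 1 base apart. Those LAMB3 starts lie 41 and 137 bases inside the gene. LAMB1 held 4 GC box matches and LAMB2 held 1, and neither window held the AP-1, ISRE, NF-kB or TATA letters.
LAMB1, chr7:108003112-108003411, minus strand: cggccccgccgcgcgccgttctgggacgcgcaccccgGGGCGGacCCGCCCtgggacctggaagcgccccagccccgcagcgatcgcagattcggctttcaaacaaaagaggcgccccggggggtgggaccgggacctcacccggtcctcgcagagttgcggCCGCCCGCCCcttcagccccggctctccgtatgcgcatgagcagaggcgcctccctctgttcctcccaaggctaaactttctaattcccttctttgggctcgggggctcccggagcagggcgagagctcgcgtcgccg
LAMB2, chr3:49133001-49133300, minus strand: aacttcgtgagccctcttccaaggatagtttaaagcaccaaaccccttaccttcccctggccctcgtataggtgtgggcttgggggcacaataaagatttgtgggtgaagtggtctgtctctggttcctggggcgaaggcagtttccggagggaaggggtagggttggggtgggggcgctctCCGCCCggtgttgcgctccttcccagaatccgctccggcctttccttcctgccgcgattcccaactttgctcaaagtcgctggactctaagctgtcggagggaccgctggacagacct

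The broadly expressed laminin beta chains moved in opposite directions. LAMB1 (ENSG00000091136, chromosome 7 at 107923799 to 108003255, minus strand), the beta chain of many laminins, stood at 82.68, 83.25 and 88.50 TPM in knockdown replicates, against 108.78, 128.79 and 126.92 TPM in negative control replicates. All knockdown values lay below all control values, and LAMB1 fell to 0.70 of the control level (limma log2 fold change −0.51, SE 0.07, adjusted p = 0.00668). LAMB2 (ENSG00000172037, chromosome 3 at 49121114 to 49133118, minus strand), which takes that place in other trimers and is known from mature basement membranes, stood at 308.07, 304.69 and 292.73 TPM in knockdown replicates and 243.17, 241.63 and 244.42 TPM in negative control replicates. It rose 1.24-fold without overlap (limma log2 fold change 0.31, SE 0.04, adjusted p = 0.00311). The ratio of LAMB2 to LAMB1 was 3.73, 3.66 and 3.31 in knockdown and 2.24, 1.88 and 1.93 in negative control libraries. LAMB1 made up 8.62% to 9.99% of all laminin beta TPM in knockdown and 13.6% to 15.8% in negative control libraries. LAMB1 shares 70 exon bases with DLD on the opposite strand, and the sources used here do not say if counting was by strand.

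LAMA5 and LAMC1, which join LAMB1 or LAMB2 in the trimers of most adult epithelia, did not pass the test. LAMA5, the main alpha chain of most adult epithelial basement membranes, stood at 514.33, 514.54 and 449.62 TPM in knockdown and 438.79, 408.41 and 426.14 TPM in negative control replicates. Its groups did not overlap (log2 fold change 0.21, 95% interval 0.06 to 0.36, limma adjusted p = 0.0681), and without knockdown replicate 3 it was called (log2 fold change 0.28, adjusted p = 0.0242). LAMA5 shares 244 of its 14291 exon bases with ADRM1 on the opposite strand, a gene listed at 149 to 176 TPM in knockdown and 157 to 164 TPM in negative control libraries. LAMC1, the gamma chain of most laminins, stood at 146 ± 2.95 TPM in knockdown and 133 ± 2.18 TPM in negative control libraries (SD, n = 3 each; log2 fold change 0.13, limma adjusted p = 0.0762). LAMA3 made up 21.3% to 27.1% of laminin alpha TPM in knockdown and 18.8% to 20.7% in negative control libraries. LAMB3 made up 57.0% to 59.2% of laminin beta TPM in knockdown and 54.0% to 55.9% in negative control libraries. Both LAMA3 and LAMB3 thus held a higher share in every knockdown library. So did LAMB2, at 32.1% to 33.0% of laminin beta TPM in knockdown and 29.7% to 30.4% in negative control libraries. The 11 laminin genes together summed to 1647 to 1779 TPM in knockdown and 1461 to 1476 TPM in negative control libraries.

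**Figure D2:**
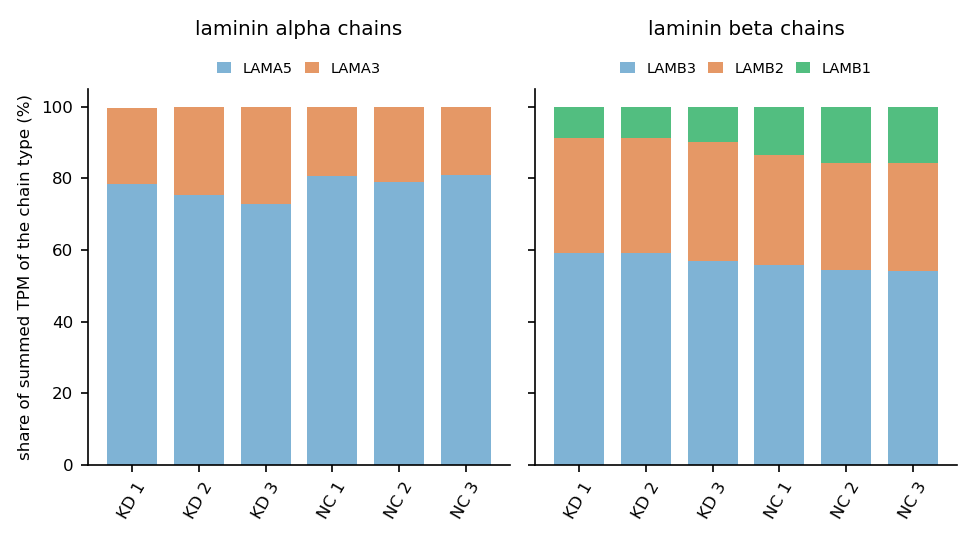
Share of the summed TPM of laminin alpha and beta chain genes held by each abundant gene, in percent, for knockdown (KD) and negative control (NC) replicates 1 to 3. The LAMB1 segment is thinner in all KD libraries (8.62% to 9.99%) than in NC libraries (13.6% to 15.8%). The LAMB3 and LAMB2 segments are taller.

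Another 5 laminin genes lay under the filter. LAMA2, the alpha chain of muscle laminin, was listed at 1.71, 0.57 and 0.63 TPM in knockdown and 0.05, 0.15 and 0.21 TPM in negative control replicates, with no overlap but an adjusted p of 0.147 when limma was run without the filter. LAMA1, LAMA4, LAMB4 and LAMC3 did not exceed 0.52 TPM in any library.

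Among integrin alpha subunits, 2 rose and 1 fell of 10 tested. ITGA2 (ENSG00000164171, chromosome 5 at 52989326 to 53094779, plus strand), the collagen-binding subunit, stood at 26.84, 31.78 and 27.05 TPM in knockdown replicates, against 16.95, 17.78 and 17.31 TPM in negative control replicates. The groups did not overlap, and ITGA2 rose 1.61-fold (limma log2 fold change 0.68, SE 0.08, adjusted p = 0.00283). ITGA5 (ENSG00000161638, chromosome 12 at 54395261 to 54419460, minus strand), the fibronectin-binding subunit, stood at 100.65, 97.80 and 96.82 TPM in knockdown and 81.23, 76.84 and 71.43 TPM in negative control replicates. It rose 1.28-fold without overlap (limma log2 fold change 0.36, SE 0.06, adjusted p = 0.00912). Both calls held in all 17 alternative fits described in the closing section. FN1, which encodes fibronectin, rose as well (log2 fold change 0.64, SE 0.04, limma adjusted p = 0.000239).

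ITGAE (ENSG00000083457, chromosome 17 at 3714628 to 3801243, minus strand), which with ITGB7 forms a lymphocyte receptor for E-cadherin, stood at 24.90, 25.11 and 21.25 TPM in knockdown and 30.51, 28.46 and 30.80 TPM in negative control replicates. It fell to 0.80 of control (limma log2 fold change −0.32, SE 0.08, adjusted p = 0.04). The groups did not overlap, but the call was lost without any 1 of the 6 libraries (adjusted p = 0.0629 to 0.123). Its partner ITGB7 was listed at 0.18, 0.46 and 0.73 TPM in knockdown and 0.97, 0.76 and 0.97 TPM in negative control replicates, under the filter. ITGB7 shares 1886 of its 4481 exon bases with ZNF740 on the opposite strand, and ITGAE shares 427 with HASPIN, so their values may hold reads of those genes.

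The alpha subunits that bind laminin went different ways by small amounts. ITGA3, the most abundant alpha subunit, stood at 494.22, 463.33 and 448.97 TPM in knockdown and 425.59, 398.96 and 433.46 TPM in negative control replicates, with no overlap and no call (log2 fold change 0.16, 95% interval 0.04 to 0.28, limma adjusted p = 0.0894). ITGA6 stood at 40.83, 46.52 and 42.77 TPM in knockdown and 51.23, 51.63 and 48.48 TPM in negative control replicates. Its groups did not overlap and it was not called (log2 fold change −0.21, SE 0.06, limma adjusted p = 0.0676), but after median ratio scaling it fell (−0.31, adjusted p = 0.0159). ITGA7, a muscle laminin receptor subunit, had 1.18, 1.36 and 3.23 TPM in knockdown and 0.72, 1.65 and 1.61 TPM in negative control replicates, with a log2 fold change between −0.45 and 1.03 (95% interval).

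ITGA1, the neighbour of ITGA2 on chromosome 5 and a second collagen-binding subunit, varied within the knockdown group. It stood at 16.49, 18.10 and 31.80 TPM in knockdown and 26.66, 22.90 and 22.68 TPM in negative control replicates (limma log2 fold change −0.17, SE 0.23, adjusted p = 0.661). Without knockdown replicate 3 it fell (−0.45, adjusted p = 0.0478). Its exons share 475 bases with PELO, a ribosome rescue factor gene on the same strand, which was listed at 15.82, 12.26 and 13.26 TPM in knockdown and 0, 5.95 and 9.99 TPM in negative control replicates, and the part of shared reads in these values was not tested. ITGAV, the shared partner of several beta subunits, stood at 20.0 ± 1.01 TPM in knockdown and 20.8 ± 1.62 TPM in negative control libraries (log2 fold change −0.05, 95% interval −0.23 to 0.13, limma adjusted p = 0.703). ITGA2B, a platelet subunit, and ITGAM, a myeloid one, were near 1 to 2 TPM and not called (adjusted p = 0.986 and 0.901). The other 8 alpha subunits, among them ITGA4, which was listed at 0 in every library, stayed under the filter with at most 0.43 TPM.

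Among integrin beta subunits, 1 rose and 1 fell of 7 tested. ITGB8 (ENSG00000105855, chromosome 7 at 20330702 to 20415754, plus strand) had the largest fold change of the 23 genes. It stood at 12.14, 14.24 and 11.78 TPM in knockdown replicates, against 6.22, 7.23 and 7.16 TPM in negative control replicates. The lowest knockdown value was far above the highest control value, and ITGB8 rose 1.74-fold (limma log2 fold change 0.80, SE 0.10, adjusted p = 0.00389), in all 17 alternative fits. ITGB6, another TGF-beta-activating partner of ITGAV, stood at 6.10, 8.10 and 6.19 TPM in knockdown and 5.59, 7.68 and 6.63 TPM in negative control replicates. Its groups overlapped (log2 fold change 0.03, 95% interval −0.32 to 0.38, limma adjusted p = 0.916). Its log2 fold change was −0.06 after median ratio scaling. The ratio of ITGB8 to ITGB6 was 1.99, 1.76 and 1.90 in knockdown and 1.11, 0.94 and 1.08 in negative control libraries. ITGB8 to ITGAV stood at 0.635 ± 0.034 in knockdown and 0.331 ± 0.004 in negative control libraries (SD, n = 3 each).

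ITGB4 (ENSG00000132470, chromosome 17 at 75721328 to 75757818, plus strand), the hemidesmosome subunit, stood at 198.59, 189.35 and 172.65 TPM in knockdown replicates, against 231.24, 211.74 and 238.57 TPM in negative control replicates. All knockdown values lay below all control values, and ITGB4 fell to 0.82 of control (limma log2 fold change −0.28, SE 0.07, adjusted p = 0.0391). The call was lost without knockdown replicate 2 (adjusted p = 0.0998) or 3 (0.0882) and without negative control replicate 1 (0.114), 2 (0.0508) or 3 (0.123), and it held after median ratio scaling (−0.38, adjusted p = 0.0211). Relative to its only known partner ITGA6, there was 4.86, 4.07 and 4.04 times as much ITGB4 in knockdown and 4.51, 4.10 and 4.92 times in negative control libraries, and these ranges overlap. The genes of the hemidesmosome laminin receptor were lower in each knockdown library, at a summed 215 to 239 TPM against 263 to 287 TPM in negative control libraries, while LAMA3 and LAMB3, chains of its ligand, were higher. The difference between receptor and ligand was not tested.

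ITGB1, the partner of most alpha subunits here, stood at 318.70, 354.03 and 358.91 TPM in knockdown and 375.35, 391.17 and 377.32 TPM in negative control replicates. The groups were apart and it was not called (log2 fold change −0.15, SE 0.05, limma adjusted p = 0.115), but after median ratio scaling it fell (−0.25, adjusted p = 0.0189). ITGB5, a vitronectin-binding partner of ITGAV, stood at 71.78, 58.69 and 59.52 TPM in knockdown and 73.90, 72.64 and 74.83 TPM in negative control replicates (log2 fold change −0.22, SE 0.08, limma adjusted p = 0.119), and it fell without knockdown replicate 1 (−0.32, adjusted p = 0.0138). ITGB2, the leukocyte subunit, averaged 9.80 ± 0.72 TPM in knockdown and 9.97 ± 1.55 TPM in negative control libraries, with an adjusted p of 0.952. Its known alpha partners were low here, with ITGAM near 1 TPM and ITGAL, ITGAX and ITGAD under the filter. ITGB3 stood at 1.47 ± 0.02 TPM in knockdown and 1.24 ± 0.12 TPM in negative control libraries (limma adjusted p = 0.546).

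Integrin alpha genes summed to 695 to 728 TPM in knockdown and 623 to 656 TPM in negative control libraries, and beta genes to 620 to 636 TPM in knockdown and 701 to 718 TPM in negative control libraries. These sums mostly reflect few genes. Over the 6 libraries, ITGA3 made up 64.1% to 67.8% of the alpha sum. ITGB1 made up 51.4% to 57.8% and ITGB4 27.8% to 33.2% of the beta sum. Over both classes the sum was 1336 ± 17.6 TPM in knockdown and 1351 ± 24.0 TPM in negative control libraries (SD, n = 3 each), with overlapping ranges. These totals depend on the scaling. Divided by median ratio factors, a choice made after seeing the data, the sum over both classes was 1264 to 1321 in knockdown and 1358 to 1414 in negative control libraries, without overlap. The alpha sum was then 668 to 714 in knockdown and 639 to 681 in negative control libraries, with overlap. The beta sum stayed apart, at 597 to 607 in knockdown and 719 to 742 in negative control libraries. ITGA5 stood at 0.287 ± 0.025 of ITGB1 in knockdown and 0.201 ± 0.014 in negative control libraries. The plot of ratios shows which pairs moved apart and which did not.

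**Figure D3:**
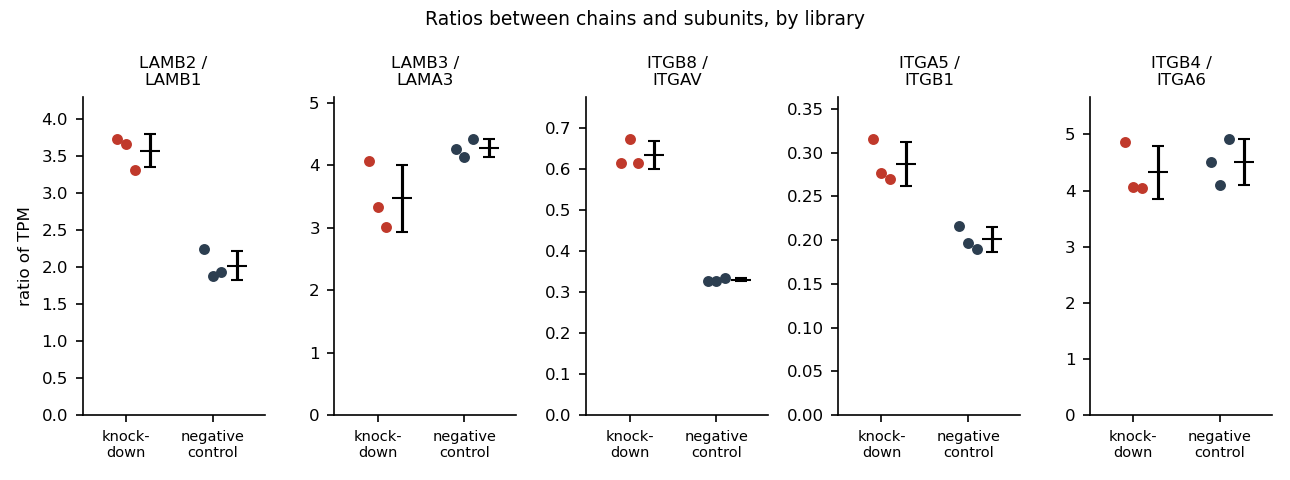
Ratio of TPM between 2 chains or subunits in each library, with mean and SD (n = 3) beside the points, knockdown left of negative control in each panel, and axes from 0. The groups are apart for LAMB2 over LAMB1, ITGB8 over ITGAV and ITGA5 over ITGB1. They are apart by little for LAMB3 over LAMA3 and overlap for ITGB4 over ITGA6.

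**Figure D4:**
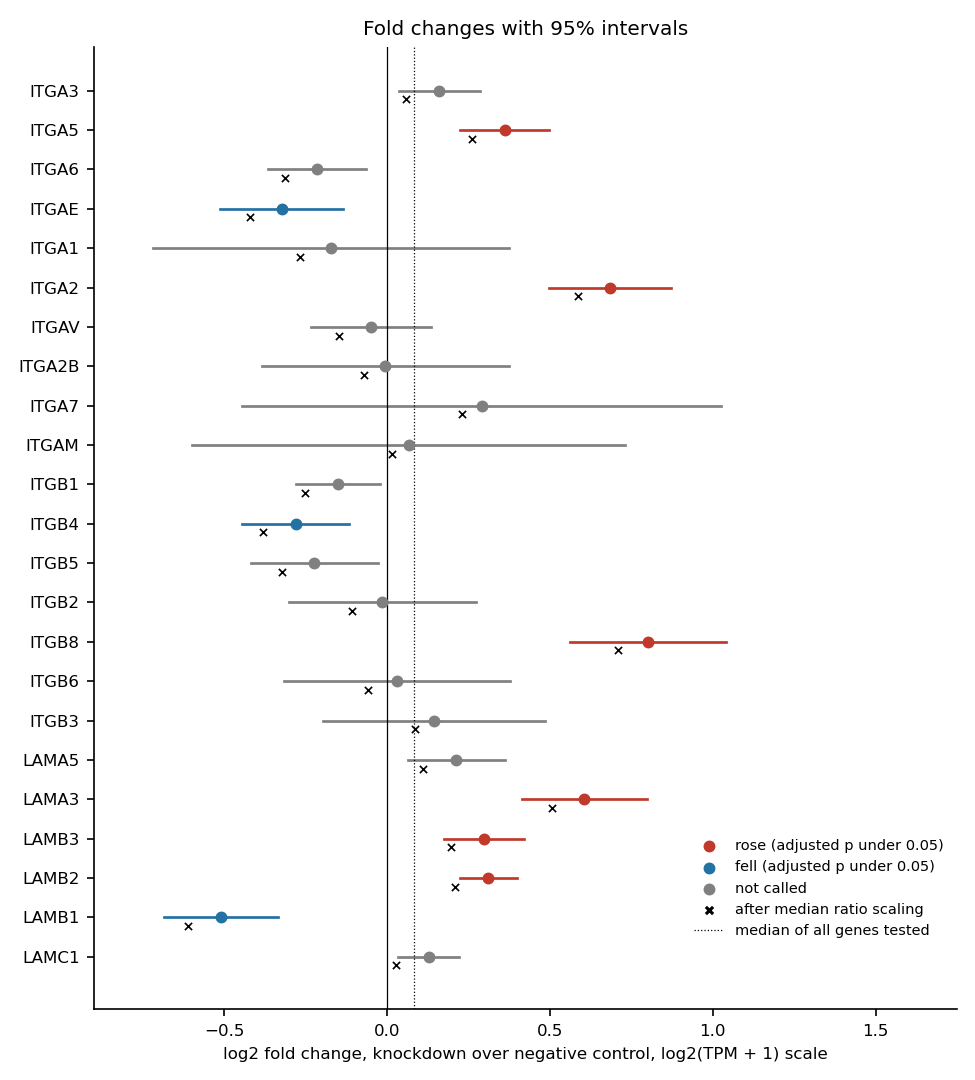
Log2 fold change (knockdown over negative control, log2(TPM + 1) scale) of the 23 tested genes, with 95% intervals, coloured by call. Crosses give the value after median ratio scaling, which lies lower for every gene, and the dotted line marks the median of all genes, 0.08.

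Genes that work with integrins and laminins were counted in 5 lists, to be read against the 14.8% of all genes that were called. Among 40 integrin adaptor and signaling genes, 6 rose and 1 fell of 34 tested (20.6% called), with a median log2 fold change of 0.13. After median ratio scaling 2 rose and 4 fell. ACTN4, an actin crosslinker of adhesions, stood at 550.42, 566.26 and 504.77 TPM in knockdown and 360.72, 340.49 and 358.41 TPM in negative control replicates, and it rose 1.53-fold without overlap (limma adjusted p = 0.00101). TNS4, a tensin that binds integrin beta tails, stood at 28.77, 27.07 and 25.35 TPM in knockdown and 39.59, 39.01 and 39.95 TPM in negative control replicates, and it fell to 0.69 of control (limma adjusted p = 0.00276). The adaptor genes BCAR1 and CRK rose with log2 fold changes of 0.32 and 0.33 (SE 0.06 and 0.07, limma adjusted p = 0.0131 and 0.02). The BCAR1 call was lost without negative control replicate 2 (adjusted p = 0.0548). The CRK call was lost after median ratio scaling (0.0547), without knockdown replicate 2 (0.0696) or 3 (0.0626) and without negative control replicate 1 (0.0648) or 3 (0.0721).

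Basement membrane genes other than laminins had 3 rises among 14 tested of 20 (21.4% called), no falls in limma (1 at an unadjusted p under 0.05) and a median log2 fold change of 0.16. After median ratio scaling 1 rose and 1 fell. NID2, a nidogen that links laminin to collagen IV, stood at 129.93, 123.50 and 137.20 TPM in knockdown and 81.77, 84.76 and 86.47 TPM in negative control replicates. It rose 1.54-fold without overlap (limma adjusted p = 0.000938). AGRN, a laminin-binding proteoglycan, and COL4A6, a collagen IV chain, rose with log2 fold changes of 0.18 and 0.25 (limma adjusted p = 0.0441 and 0.0209), neither of them called after median ratio scaling (adjusted p = 0.362 and 0.0858). The AGRN call was also lost without any 1 library (adjusted p = 0.0648 to 0.132), and the COL4A6 call without knockdown replicate 2 (0.0696) or 3 (0.0587) and negative control replicate 1 (0.0599) or 3 (0.0645). COL4A3 was not called (log2 fold change 0.37, SE 0.10, adjusted p = 0.0565), but it was called without negative control replicate 2 (adjusted p = 0.0431).

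Of 31 other integrin ligand genes, 7 rose and 1 fell among 19 tested (42.1% called), and the median log2 fold change was −0.0028. After median ratio scaling 6 rose and 2 fell. ICAM1, the ligand of leukocyte integrins, rose 1.69-fold (limma log2 fold change 0.76, SE 0.04, adjusted p = 0.000263). THBS1, which encodes thrombospondin 1, stood at 124 ± 1.62 TPM in knockdown and 95.7 ± 1.98 TPM in negative control libraries (SD, n = 3 each) and rose (limma log2 fold change 0.36, adjusted p = 0.00236). FBN2, a fibrillin gene, stood at 11.43, 10.84 and 12.35 TPM in knockdown and 19.57, 19.14 and 19.30 TPM in negative control replicates, and it fell to 0.62 of control (limma adjusted p = 0.00162). Hemidesmosome and tetraspanin genes had 1 rise among 10, no falls in limma (1 at an unadjusted p under 0.05) and a median of 0.01. The rise was KRT14, a basal keratin whose reads may be shared with near copies, at 14.09, 12.16 and 11.24 TPM in knockdown and 4.40, 3.59 and 4.90 TPM in negative control replicates (limma log2 fold change 1.35, adjusted p = 0.00136). CD9, KRT5 and CD82 were not called (log2 fold changes 0.10, 0.18 and −0.19, limma adjusted p = 0.148, 0.15 and 0.158). After median ratio scaling 2 hemidesmosome and tetraspanin genes fell and 1 rose.

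Of 17 laminin and matrix protease genes and their inhibitors, 8 passed the filter and 3 rose (37.5% called, and 3 rises also after median ratio scaling), with no falls in limma (0 at an unadjusted p under 0.05) and a median log2 fold change of 0.29. ST14, which encodes matriptase, rose 1.61-fold (limma adjusted p = 0.000541). PLAU, which encodes urokinase, stood at 30.80, 30.37 and 31.76 TPM in knockdown and 20.99, 19.67 and 19.72 TPM in negative control replicates and rose 1.51-fold (limma adjusted p = 0.00136). TIMP1, a metalloproteinase inhibitor, averaged 163 ± 8.67 TPM in knockdown and 127 ± 4.15 TPM in negative control libraries (SD, n = 3 each) and rose 1.28-fold (limma adjusted p = 0.00756). BMP1, a protease that trims laminin chains, stood at 20.77, 18.98 and 24.03 TPM in knockdown and 14.95, 18.56 and 16.26 TPM in negative control replicates, apart by little and not called (log2 fold change 0.34, SE 0.11, limma adjusted p = 0.0923).

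**Figure D5:**
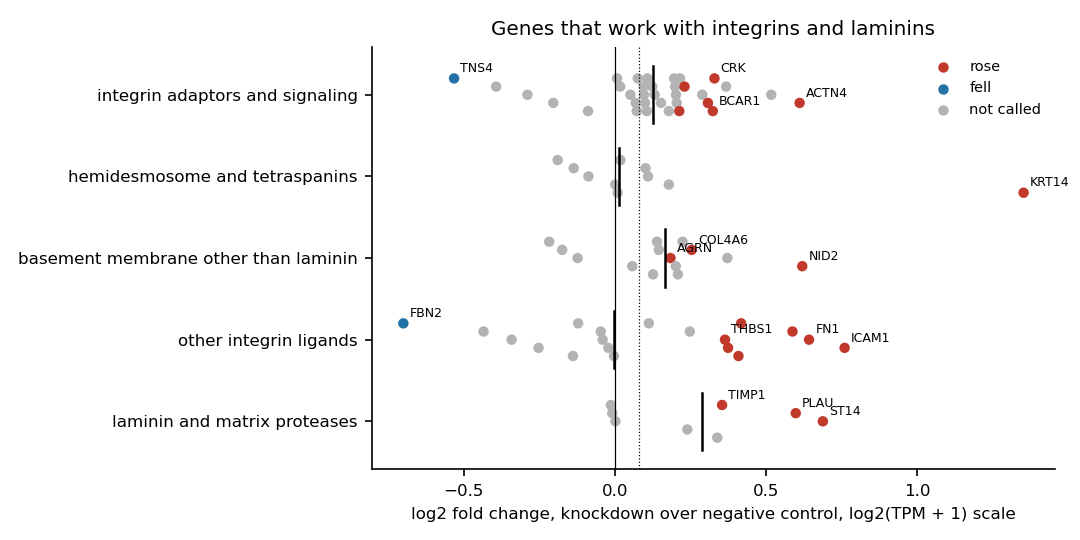
Log2 fold change (knockdown over negative control, log2(TPM + 1) scale) of each tested gene in 5 lists of partner genes, with red for genes that rose, blue for genes that fell and grey for genes not called, a black bar at the list median and a dotted line at the median of all genes, 0.08. Called genes among the 4 with the smallest p in each list are named, and most genes lie close to 0.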

How the data were processed

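Polyadenylated RNA was sequenced in 3 knockdown and 3 negative control libraries of NCI-H292 cells. The authors deposited TPM values, 1 column per library, with gene lengths and annotations. Fastp, HISAT and RSEM are named in the submitters' processing notes without versions or roles. The notes also name GRCm38.p5, a mouse build, while 58883 of 60027 IDs are human Ensembl IDs, so the build of the values is unsettled. Another 1144 IDs have the prefix MSTRG and no gene name, and 1 empty line was left out. Gene positions and exon overlaps came from GENCODE 29 on GRCh38, matched by Ensembl ID, and promoters from RefSeq on GRCh38.p14.

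Genes with a mean of at least 1 TPM (15755) were tested with limma 3.58.1 (R 4.3.3, trended prior, no covariates) on log2(TPM + 1). Two-sided p-values were adjusted by Benjamini-Hochberg over all tested genes, and fold changes, knockdown over negative control, understate those of low genes. The test was first checked on simulated data. Of the 38 genes of the rule, 1 is not reported here. Every other gene of the rule with a mean of at least 1 TPM is named, with up to 4 genes of smallest p from each of 5 lists of partner genes. The marker genes CD68, LCP1, PTPRC and COL1A1 were named beside results they touch, and PELO, DLD, ADRM1, ZNF740 and HASPIN for shared exons. All 144 list entries, markers included, were found. Members and lists were chosen with earlier results of these data known. Alternatives were another pseudocount, other filters, 3 other scalings, removal of length trends, other limma settings, a replicate block and leaving out each library. Removal of length and GC trends and the scaled sums were chosen after seeing the data. No 2 libraries held identical values.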

Additional observations from a re-analysis of the deposited data

How the results depend on the processing

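Among the 17 alternatives, ITGA2, ITGA5, ITGB8, LAMA3, LAMB1 and LAMB2 kept their call and direction in every one. ITGAE lost its call in 9, ITGB4 in 8 and LAMB3 in 4, and none of the 9 called genes changed sign. For genes over the whole table, 1780 rose and 547 fell. The counts were 1136 and 339 with no filter, 977 and 1052 with median ratio scaling, 1001 and 980 with quantile normalization, 1083 and 865 when totals left out ribosomal protein and mitochondrial genes, 1055 and 977 once length trends were taken out, and 1108 and 1161 once GC trends were taken out as well. Leaving out 1 library gave 867 to 1267 rises and 246 to 366 falls.

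Integrin falls numbered 2 in limma as reported. They were 4 after median ratio scaling, quantile normalization, rescaling or removal of length trends, and 5 with length and GC trends removed, where ITGA6, ITGB1 and, in the last, ITGB5 were added. They were 0 with no filter (6 at an unadjusted p under 0.05) and 0 with a prior without trend (3 at an unadjusted p under 0.05), and 0 to 2 without 1 library (3 to 5 at an unadjusted p under 0.05). Integrin rises stayed at 3 in all 17 alternatives, and laminin rises, 3 as reported, ranged from 2 to 4.

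The deviations of same-numbered libraries of the 2 groups had correlations near 0 (0.017, −0.012 and 0.045). Such correlations cannot show whether these libraries were prepared together, which the labels do not state. With the replicate block, 1123 genes rose and 343 fell, and 0 integrin genes fell (5 at an unadjusted p under 0.05), while 3 integrin and 3 laminin genes rose and 1 laminin gene fell. Knockdown replicates 1 and 3 had their highest correlation with the control of the same number (0.017 and 0.045). Knockdown replicate 2 had its highest with negative control replicate 1 (0.037).

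Among the integrins, laminins and named partner genes, the only called gene whose sign turned was AGRN. ITGB6 stood at −0.058, −0.078, −0.040, −0.046 and −0.0062 after median ratio scaling, quantile normalization, rescaling, and removal of length or of length and GC trends, and ITGAM at −0.028, −0.0091 and −0.020 after quantile normalization and these 2 removals. Quantile normalization put CD9 at −0.0042, and removal of length and GC trends put AGRN at −0.031. Without 1 library, the log2 fold changes spanned −0.45 to 0.00081 for ITGA1, −0.10 to 0.11 for ITGA2B, −0.0093 to 0.47 for ITGA7, −0.23 to 0.28 for ITGAM, −0.13 to 0.067 for ITGB2 and −0.086 to 0.13 for ITGB6. The difference in SH3PXD2A-AS1 kept its sign in 8 alternatives, from −0.13 to −0.38 TPM. Depth is unknown, so no counting error could be given, and genes near 1 TPM such as ITGA7, ITGAM and ITGB3 have wide intervals.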
